A study of Mus musculus with 25 samples.

Results

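Haematopoietic stem cells (HSCs) of mice given 2 doses of 5-fluorouracil (5-FU) were compared with HSCs of mice given 0 doses, by the share of methylated reads at CpG sites. The comparison used 6 of the 25 libraries of the series: the 3 labelled with 2 doses and the 3 labelled with 0 doses. All 6 were made from bone marrow HSCs of C57Bl/6 mice with a labelled age of 3.5 months plus 6 months, and the labels separate the groups only by the number of doses. The labels do not give the amount of drug, the time between doses, the sort of the cells or the number of mice behind a library. Nothing says that replicates came from separate animals, so p-values measure the spread between these libraries, which may be technical. HSCs of mice with 4 doses and the same labelled age (n = 2), of young mice of 3.5 months (n = 2), of old mice of 25 months (n = 2) and of fetuses (n = 2) served as reference values.

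HSCs sit at the top of blood formation, and in the adult marrow most of them rest outside the cell cycle. 5-FU blocks thymidylate synthesis and kills dividing blood cells, after which surviving HSCs divide to refill the marrow. Methylation of cytosine at CpG sites is copied at each division and is usually low in CpG-rich promoters and high elsewhere. Reduced representation bisulfite sequencing (RRBS) reads methylation near the cut sites of a restriction enzyme, usually one that cuts at CCGG, so that both ends of a sequenced fragment lie in such a site. The enzyme is not named in the labels. The comparison asks whether a history of enforced division is followed by a change of methylation in HSCs. The cells were measured in bulk, so a change in the mix of cells and a change within cells cannot be told apart, and the labelled cell type cannot be checked against RNA markers in these data.

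The libraries with 0 doses held 23392293 to 28509907 reads over CpGs, and the median CpG had 10 to 13 reads. The libraries with 2 doses held 49104066 to 55069692 reads, and the median CpG had 22 to 26, so depth differed between the groups and cannot be told apart from the number of doses. On the autosomes, 840024 CpGs had at least 5 reads in all 6 libraries. They fell into 79543 tiles, which are windows of 1000 bp with at least 3 such CpGs.

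The 250 bases before the transcription start are shown for 6 genes whose promoter windows held some of the larger differences described here. They are shown because in 4 of them the CpGs that were higher with 2 doses lie in a pair of CCGG sites 34 bases apart. Capitals mark CCGG, which reads the same on both strands. The windows run 5′ to 3′ on the strand of the gene, with sequences from RefSeq (GRCm38.p6) and positions from the deposited mm9 coordinates, to which they were matched by the spacing of their CpGs.

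Cdkn2a, chr4:88940524-88940773, minus strand: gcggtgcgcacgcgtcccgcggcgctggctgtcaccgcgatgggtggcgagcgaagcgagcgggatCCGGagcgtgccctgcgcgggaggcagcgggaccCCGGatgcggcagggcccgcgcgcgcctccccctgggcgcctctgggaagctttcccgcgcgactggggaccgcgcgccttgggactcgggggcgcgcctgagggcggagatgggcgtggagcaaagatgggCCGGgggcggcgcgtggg

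Bcl2l11, chr2:127951524-127951773, plus strand: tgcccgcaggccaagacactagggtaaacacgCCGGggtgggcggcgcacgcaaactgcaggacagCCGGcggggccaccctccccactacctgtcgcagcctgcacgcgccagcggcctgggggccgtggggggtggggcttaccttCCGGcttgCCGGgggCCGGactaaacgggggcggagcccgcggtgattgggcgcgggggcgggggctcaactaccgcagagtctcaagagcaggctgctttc

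Dll1, chr17:15512788-15513037, minus strand: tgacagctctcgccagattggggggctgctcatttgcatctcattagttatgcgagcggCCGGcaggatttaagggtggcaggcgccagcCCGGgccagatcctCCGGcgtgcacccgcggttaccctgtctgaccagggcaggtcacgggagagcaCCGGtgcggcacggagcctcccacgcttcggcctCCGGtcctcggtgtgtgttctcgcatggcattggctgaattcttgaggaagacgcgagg

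Uqcr11, chr10:79869567-79869816, minus strand: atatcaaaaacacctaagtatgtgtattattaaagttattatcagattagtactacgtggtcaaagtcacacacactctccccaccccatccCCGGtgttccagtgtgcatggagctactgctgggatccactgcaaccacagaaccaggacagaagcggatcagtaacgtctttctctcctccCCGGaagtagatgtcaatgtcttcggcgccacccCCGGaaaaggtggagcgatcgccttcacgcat

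Shank3, chr15:89329789-89330038, plus strand: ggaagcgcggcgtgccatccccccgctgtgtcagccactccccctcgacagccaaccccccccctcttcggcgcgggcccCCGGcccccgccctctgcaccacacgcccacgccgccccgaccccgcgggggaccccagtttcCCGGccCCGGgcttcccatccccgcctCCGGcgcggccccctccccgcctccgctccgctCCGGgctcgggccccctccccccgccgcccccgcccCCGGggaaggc

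Thrap3, chr4:125879955-125880204, minus strand: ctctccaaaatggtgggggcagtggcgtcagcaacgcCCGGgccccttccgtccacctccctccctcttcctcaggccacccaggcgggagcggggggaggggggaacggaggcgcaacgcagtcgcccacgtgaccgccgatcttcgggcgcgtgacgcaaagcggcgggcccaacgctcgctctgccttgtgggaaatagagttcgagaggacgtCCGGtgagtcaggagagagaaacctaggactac

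The CpGs of the pairs of sites lie 183 and 149 bases before the start in Cdkn2a, 217 and 183 in Bcl2l11, 92 and 58 in Dll1, and 65 and 31 in Uqcr11. The windows of Shank3 and Thrap3, which were lower with 2 doses, hold 6 and 2 CCGG sites and no pair 34 bases apart.

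Across the genome, 1 tile of 79543 was lower with 2 doses and 0 were higher, at an adjusted p under 0.05 and a difference of at least 10 percentage points (0.00126% of tiles; quasi-binomial model on reads, F test, Benjamini-Hochberg). An unadjusted p under 0.05 was reached by 4176 tiles, or 5.25%. The limma test on log2 ratios of methylated to unmethylated reads called 0 tiles, with 10486 at an unadjusted p under 0.05.

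The changed tile, chr4:4270001-4271000, holds 9 measured CpGs and lies more than 5 kb from the start of any matched gene. Its level was 83.1%, 75.8% and 71.8% with 0 doses and 8.55%, 7.21% and 10.5% with 2 doses (adjusted p = 0.0482, quasi-binomial model). The groups were far apart, but so was their depth, with 142 to 260 reads in the libraries with 0 doses and 3671 to 4984 in those with 2. That difference in depth sat in 3 CpGs, at positions 4270084, 4270094 and 4270099. At the first of them, 14, 32 and 33 reads gave 78.6%, 46.9% and 60.6% with 0 doses, and 1195, 1561 and 1622 reads gave 4.1%, 2.6% and 4.4% with 2 doses. The other 6 CpGs had overlapping levels in both groups, and 5 of them stood at 60% or more in every library. With each CpG counted equally the tile stood at 72.0% and 53.4%, and with CpGs over 500 reads left out the difference was 2.40 points in the other direction. Leaving out any 1 of the 6 libraries also ended the call. The tile stood at 14.4% to 16.7% in young HSCs and at 10.5% to 13.3% with 4 doses, near the libraries with 2 doses. The part of read depth in this difference was not tested beyond these values.

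**Figure D1:**
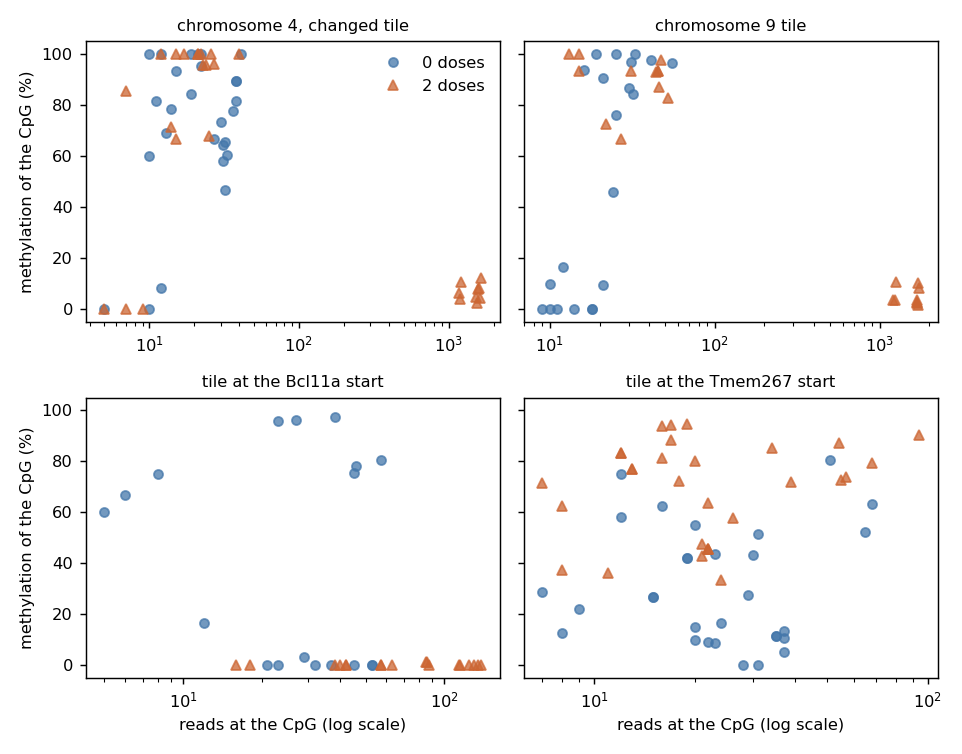
Methylation of each CpG (%) against the reads at that CpG (log scale) in 4 tiles, with 1 point per CpG and library, circles for 0 doses and triangles for 2 doses. In the chromosome 4 tile 3 CpGs of the 2-dose libraries lie beyond 1000 reads, all at low levels, and another CpG stands near 0 in both groups at few reads, while in the Bcl11a tile 3 CpGs stand at 60% or more with 0 doses and at 1.2% or less with 2 doses.

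As so few tiles passed the test, the larger differences are described by whether the 3 libraries of one group all lay above the 3 of the other. This was so in 13786 tiles (17.3%), of which 3676 were higher with 2 doses (4.62%) and 10110 lower (12.7%). The lower tiles had small differences, with a median of 1.92 points and 3340 tiles under 1 point, against a median of 7.11 points for the higher tiles. With a difference of at least 10 points, 2739 tiles remained (3.44%), 1161 higher (1.46%) and 1578 lower (1.98%). The order of these counts rested on 1 library: without replicate 1 of the 0-dose group, 2735 tiles were higher and 2197 lower. A difference of at least 30 points was reached by 37 higher and 54 lower tiles.

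A tile's level depends on whether its reads are pooled or its CpGs are averaged. Pooling lets the deepest CpG decide, and RRBS depth can differ greatly between neighbouring CpGs. Of the 1161 higher and 1578 lower tiles, 633 (54.5%) and 830 (52.6%) also differed by at least 10 points without overlap when each CpG counted equally. Those are 62.4% of the 1015 tiles that were higher, and 64.6% of the 1284 that were lower, under equal counting. The direction turned in 34 higher and 45 lower tiles. Of the 20 tiles with the largest pooled differences among those with at least 5 CpGs and 50 reads in each library, 7 still differed by at least 10 points without overlap, 3 higher and 4 lower. They include the changed tile, whose difference shrank under equal counting as given above.

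The tile at the start of Bcl11a, a transcription factor of lymphoid development and of globin switching, was among the 4 lower tiles. At chr11:23980001-23981000 its level was 56.1%, 47.8% and 7.65% with 0 doses and 0.50%, 0.00% and 0.00% with 2 doses. The level came from 3 of its 6 CpGs, which stood at 60% to 97.4% with 0 doses, from 5 to 57 reads each, and at 0.0% to 1.2% with 2 doses, from 85 to 138 reads. In replicate 3 of the 0-dose group these CpGs had only 5 to 8 reads. Every library outside the comparison stood at 1.65% or below, so the 0-dose libraries were the ones that stood apart. The adjusted p of the tile was 0.688 (quasi-binomial model).

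The tile at the start of Tmem267, chr13:120276001-120277000, was higher with 2 doses. Its level was 39.4%, 50.0% and 17.1% with 0 doses and 72.7%, 80.1% and 67.7% with 2 doses, and equal counting of its 10 CpGs gave 30.9% against 69.2%. All 10 CpGs had 7 to 94 reads in each library. It stood at 45.5% and 77.1% with 4 doses and at 19.7% to 24.6% in young HSCs. The adjusted p was 0.760 (quasi-binomial model). A second tile with this pattern, chr6:108135001-108136000, stood at 8.70%, 6.45% and 12.7% with 0 doses, at 35.9%, 65.0% and 40.1% with 2 doses, at 38.3% and 65.2% with 4 doses, and at 8.89% to 15.7% in young HSCs. Its adjusted p was 0.688, and equal counting gave 10.0% against 41.0%. The third tile that stayed higher lies within 5 kb of the start of Lrfn4, a synaptic adhesion protein, and stood at 23.0%, 28.9% and 24.7% against 70.4%, 53.8% and 43.3% (adjusted p = 0.832, quasi-binomial model). Here the 4-dose libraries stood at 7.69% and 61.9% and young HSCs at 34.9% and 36.7%, so the 4-dose libraries did not follow the 2-dose level together.

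Other large pooled differences went with depth at 1 or a few CpGs. In the tile at the start of Sf1, a splicing factor, the pooled level was 50.9%, 38.9% and 41.6% with 0 doses and 3.40%, 3.31% and 2.21% with 2 doses. Of its 11 CpGs, 10 stood at 14.3% or less in all 6 libraries and mostly at 0. The remaining CpG, at chr19:6363969, stood at 95.9%, 89.2% and 89.2% with 242, 185 and 268 reads with 0 doses, and at 88.9%, 73.3% and 88.9% with 9, 15 and 9 reads with 2 doses. Equal counting of the CpGs gave 8.43% and 8.28%. At chr9:67896001-67897000 the group means were 67.1% and 7.58% in pooled reads and 52.6% and 53.4% with equal counting, with 128 to 196 reads against 3786 to 5299. Across all tiles the median ratio of reads, 2 doses over 0 doses, was 1.54, and it exceeded 5 in 1.18% of tiles. It exceeded 5 in 16.7% of the 54 lower tiles with a difference of at least 30 points, and in 5.41% of the 37 higher ones.

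**Figure D2:**
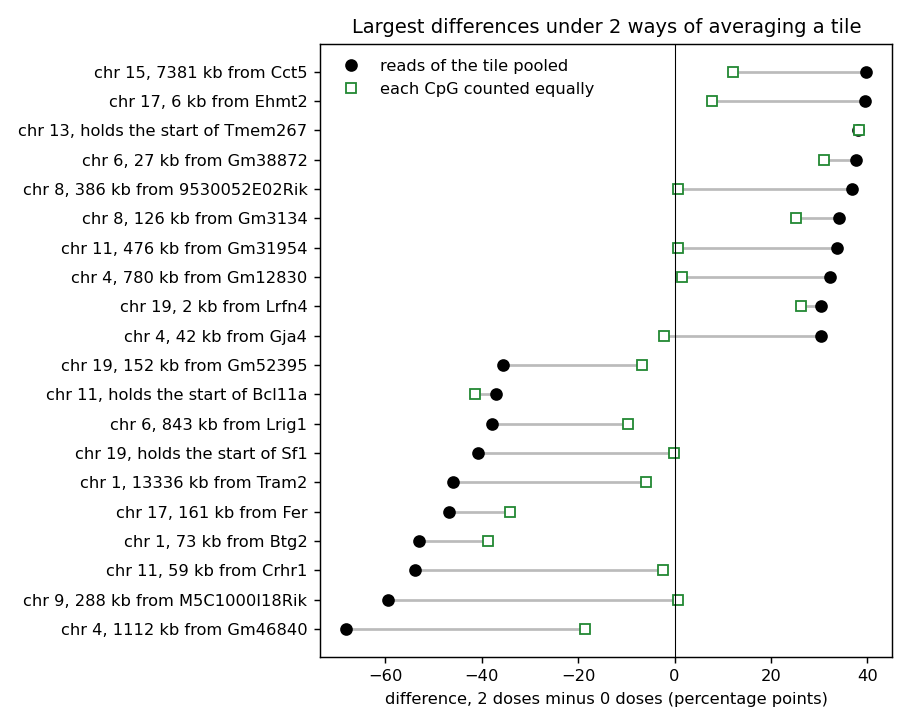
Difference between groups (2 doses minus 0 doses, percentage points) in the 20 tiles with the largest pooled differences, with filled circles for pooled reads and open squares for each CpG counted equally. With each CpG counted equally, the groups overlap or differ by under 10 points in 13 tiles. The other 7, among them those at the starts of Bcl11a and Tmem267, still differ by at least 10 points without overlap. The chromosome 4 tile differs by 18.7 in place of 68.1.

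Mean levels over all tiles did not separate the groups: 59.2% ± 1.10 (SD, n = 3) with 0 doses and 58.7% ± 0.773 (SD, n = 3) with 2 doses (exact permutation test, two-sided, p = 0.6). With 3 libraries against 3 the smallest p is 0.1, so no class of tiles can pass 0.05. Tiles under 20% in young HSCs reached that smallest p, with 3.93% ± 0.264 against 3.50% ± 0.0601 (SD, n = 3 each, exact permutation p = 0.1, adjusted 0.35 over 7 classes). Tiles with 30 or more CpGs did so too, with 6.63% ± 0.181 against 6.26% ± 0.0515 (SD, n = 3 each, exact permutation p = 0.1, adjusted 0.35). In tiles at 20% to 80% in young HSCs the means were 68.5% and 67.6%, and in tiles at 80% or more they were 89.4% and 88.8% (exact permutation p = 0.5 and 0.7).

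Where methylation was nearly absent the groups also stood apart. In 2986 tiles with 30 or more CpGs and under 2% in young HSCs, the 0-dose libraries stood at 1.17%, 1.02% and 0.83% and the 2-dose libraries at 0.56%, 0.49% and 0.47%. All 3 values with 2 doses were below all 3 with 0 doses, and 1549 of these tiles were lower without overlap against 88 higher. The groups did not overlap in 54.8% of these tiles, against 17.3% of all tiles. The differences were small, with a median of -0.501 points. The libraries with 4 doses stood at 0.47% and 0.52%, with a total depth like that of the 0-dose libraries, and young HSCs at 0.95% to 1.14%. Fetal HSCs, with no labelled doses, stood lower still, at 0.30% and 0.41%, and old HSCs stood at 1.47% and 1.75%. Low levels in this class were therefore not limited to libraries with labelled doses. The part of depth in these levels was not tested. The rate at which bisulfite fails to convert an unmethylated cytosine was not measured here.

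**Figure D3:**
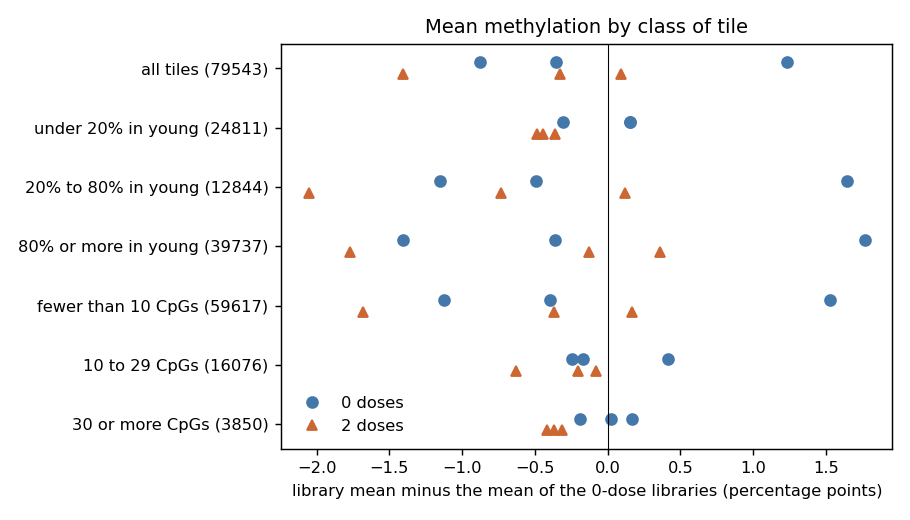
Mean methylation of each of the 6 libraries in classes of tiles, with 1 point per library and the scale given on the axis. The groups do not overlap in tiles under 20% in young HSCs and in tiles with 30 or more CpGs, and they overlap in the other 5 classes.

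Promoters were taken as the 300 bases around a start, 250 before and 50 after, for 7694 windows of 6881 genes that could be placed on mm9 and held at least 3 CpGs. Of these, 86.4% stood under 5% in all 6 libraries. The groups did not overlap in 2323 windows (30.2%), of which 247 were higher and 2076 lower with 2 doses. A difference of at least 10 points without overlap was found in 80 windows (1.04%), and here the direction was the opposite: 59 windows of 58 genes were higher and 21 windows of 20 genes were lower. Window levels pool the reads of their CpGs, so the deepest CpGs weigh most. Equal counting of CpGs was not applied to windows, so how many of the 80 would keep 10 points under it is not known.

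The higher windows belonged to genes of many kinds. Cdkn2a, which encodes cell cycle inhibitors of senescence, stood at 4.4%, 3.1% and 1.1% with 0 doses and at 54.4%, 33.2% and 23.8% with 2 doses. No tile near its start rose by as much, as given below with the gene lists. Bcl2l11, which encodes the cell death inducer BIM, stood at 0.0%, 2.2% and 2.1% against 32.9%, 25.9% and 18.8%. Dll1, a Notch ligand, stood at 1.4%, 0.9% and 1.1% against 12.8%, 14.9% and 14.7%. Replicates lay close together in Dll1 and spread more widely with 2 doses in Cdkn2a and Bcl2l11, and the groups overlapped in none of the 3. Uqcr11, a subunit of the respiratory chain, stood at 0.3%, 0.9% and 0.2% against 13.5%, 12.1% and 13%. Adam10, a protease that cleaves Notch, stood at 2.0%, 0.0% and 1.2% against 19.8%, 30.5% and 20.1%. Spry2, an inhibitor of growth factor signalling, stood at 8.1%, 0.0% and 0.0% against 28.9%, 41.2% and 27.5%. The remaining windows included Elk4, Atf4, Atp2b1 and Igf2bp2, all under 5% with 0 doses.

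Within these windows the difference sat in few CpGs. In Cdkn2a, the CpG 149 bases before the start stood at 17.6%, 15.8% and 5.9% with 0 doses (19 to 34 reads) and at 76.1%, 54.5% and 53.6% with 2 doses (84 to 163 reads). The CpGs 143, 133, 131, 129 and 127 bases before the start stood at 0.0% in all 6 libraries. With 2 doses they had only 7 to 22 reads each, so they weigh little in the pooled level of the window there. In Dll1, the CpGs at 92 and 58 bases stood at 47.4%, 54.2% and 51.2% and at 23.0%, 25.0% and 30.9% with 2 doses, against 8.3% or less and 6.2% or less with 0 doses. The CpG 7 bases further on, at 51, stood at 0.0% in all 6 libraries. In Uqcr11, the CpG at 31 bases stood at 5.3%, 5.1% and 1.4% against 37.0%, 32.5% and 64.2%, and that at 65 bases at 0.0% in each 0-dose library against 25.2%, 24.1% and 11.3%. Each of these CpGs lies inside a CCGG of a pair 34 bases apart, which can be read in the sequences printed above. Such CpGs can lie at the ends of sequenced fragments, and the sources used here do not say how read ends were trimmed. Whether the levels printed for Cdkn2a, Bcl2l11, Dll1 and Uqcr11 are those of the DNA or were set at read ends was not tested.

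The spacing was then examined in all promoter windows. They held 77918 measured CpGs, of which 16875 lay inside CCGG. Of all these CpGs, 361 (0.463%) were higher and 477 (0.612%) lower with 2 doses by at least 10 points without overlap. The nearest other CCGG lay exactly 34 bases away for 193 of the CpGs. These 193 stood at 5.22% ± 1.30 (SD, n = 3) with 0 doses and at 31.5% ± 1.71 (SD, n = 3) with 2 doses. Of the 193, 160 (82.9%) were higher by at least 10 points without overlap, and they made up 44.3% of the 361. At a spacing of 33 bases the means were 2.19% and 0.634%, at 35 bases 2.90% and 5.40%, and at 36 bases 3.66% and 0.976%. Over the other 40 spacings from 20 to 60 bases, the 2-dose mean was below the 0-dose mean in 39 and never above 5.40%. The spacing was picked after the values were seen, so the counts are a description and carry no test.

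The CpGs that lie between the sites of a pair belong to the same stretch of DNA and had far lower levels in the 2-dose libraries. In the sequences of the windows, 752 CpGs lie between 2 neighbouring CCGG 34 bases apart. At least 5 reads were found in all 3 libraries of the group for 748 of them (99.5%) with 2 doses and for 4 (0.532%) with 0 doses. Their mean level in the 2-dose libraries was 1.18%, 1.15% and 1.45%, against 29.6% to 32.8% at the CpGs inside the 2 sites. In the 0-dose libraries only 13, 14 and 20 of the 752 CpGs had at least 5 reads, with medians of 5, 6 and 5 reads, and these few stood at 23.8%, 36.7% and 17.1%, above the 4.16% to 6.67% inside the sites. In the printed windows, the 4 CpGs between the sites of Cdkn2a stood at 0.917% or less with 2 doses, from 72 to 154 reads, the 3 of Bcl2l11 at 1.30% or less, the 4 of Dll1 at 0.769% or less, and the 2 of Uqcr11 at 0.00%. The 0-dose libraries had 0 to 6 reads at these CpGs.

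Coverage between sites also began at this spacing. Of 8052 CpGs between sites 20 to 33 bases apart, 0 were covered in the 3 libraries of either group. From 34 bases on, 94.8% or more were covered in the 2-dose libraries up to a spacing of 60. In the 0-dose libraries the share was 0.501% at 40 bases, 57.7% at 50 and 93.4% at 60, so the groups differed in the shortest stretches that gave reads. The median reads at CpGs inside CCGG rose from 41 at a spacing of 33 bases to 112 at 34 with 2 doses, and were 27 and 23 with 0 doses. The part of this difference in coverage in the methylation difference was not tested.

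**Figure D4:**
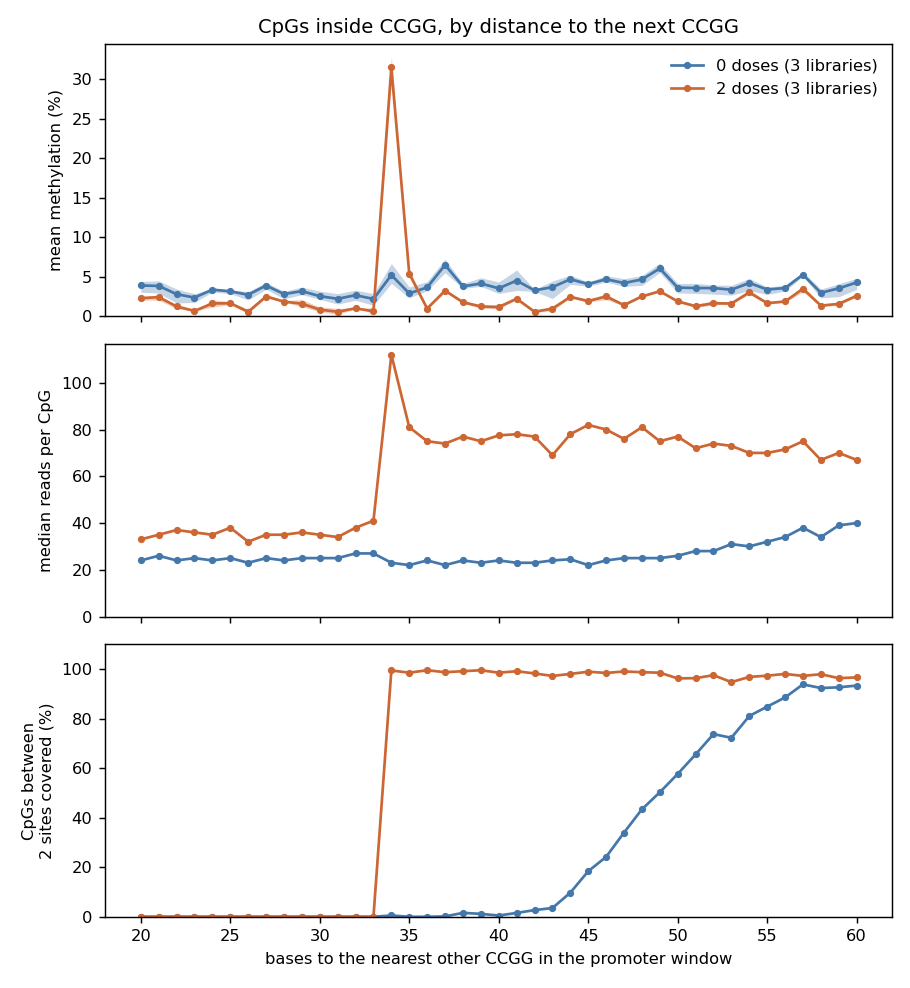
CpGs inside CCGG in the promoter windows by the distance to the nearest other CCGG (bases): mean methylation with the range of the 3 libraries shaded (top, %), median reads per CpG (middle), and the share of CpGs between 2 neighbouring sites with at least 5 reads in all 3 libraries of a group (bottom, %). With 2 doses, methylation peaks at 31.5% at 34 bases, where the reads and the coverage between sites begin to rise, while the coverage of the 0-dose libraries is 0.501% at 40 bases, 57.7% at 50 and 93.4% at 60.

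The same 193 CpGs were well above the 0-dose level in most other libraries. They stood at 28.7% and 34.5% with 4 doses, at 21.6% and 18.5% in young HSCs, at 26.4% and 19.8% in old HSCs, and at 17.8% to 19.2% in HSCs recovered after transplantation of 10 young cells. They stood at 6.67%, 4.84% and 4.16% in the 0-dose libraries and at 3.57% and 11.9% in the fetal ones. The 4-dose libraries had a total depth like that of the 0-dose libraries and 45 to 55 reads at these CpGs. Coverage between the sites also varied among libraries. Of the 752 CpGs there, 1.73% to 2.66% had 5 reads in the 0-dose libraries, and 10.1% and 79.7% in the fetal ones. The share was 97.6% or more in the libraries with 4 doses, young and old HSCs. The library from 50 transplanted young cells stood at 5.76%, with 48.9% of the CpGs between sites covered. At a spacing of 35 bases the 2-dose libraries stood at 5.14% to 5.92% and the 4-dose libraries at 5.55% and 6.97%, above every other library, and young HSCs stood at 1.37% and 1.46%. At a spacing of 36 bases every library stood at 4.41% or below.

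**Figure D5:**
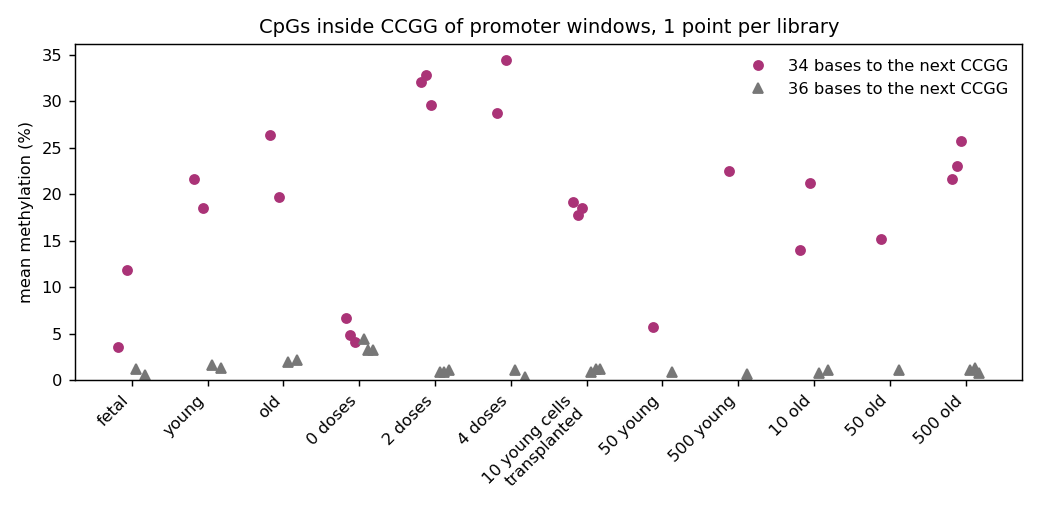
Mean methylation (%) of CpGs inside CCGG of promoter windows in every library, grouped by kind of sample, with circles for a nearest CCGG at 34 bases and triangles for 36 bases. The 3 circles with 0 doses lie between 4.16% and 6.67%, below young, old, 2-dose and 4-dose libraries, while all triangles lie at 4.41% or below.

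Most of the higher promoter windows held such a pair. Of the 7694 windows, 339 (4.41%) held 2 CCGG sites 34 bases apart, against 44 of the 59 higher windows (74.6%) and 1 of the 21 lower windows (4.76%). With all CpGs inside CCGG left out, 7047 windows could be compared and 24 differed by at least 10 points without overlap (0.341%), 12 higher and 12 lower. Of the 59 higher windows 48 could still be compared and 4 stayed higher, and of the 21 lower windows 13 could be compared and 7 stayed lower. Over all 840024 CpGs, whatever their sequence, 1.98% were higher by at least 10 points without overlap. Among CpGs with another measured CpG exactly 34 bases away the share was 1.82%, against 1.30% at 33 bases and 0.986% at 35 bases.

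The lower windows are described by their own CpGs. Bcl11a stood at 78.4%, 96.6% and 68.4% with 0 doses and at 0.8%, 0.0% and 0.0% with 2 doses, from the 3 CpGs described above. Shank3, a synaptic scaffold protein, stood at 13.8%, 13.6% and 21.0% against 1.2%, 1.0% and 2.1%. Its CpG 124 bases before the start, outside CCGG, stood at 40%, 45.5% and 71.4% from 10 to 14 reads against 0.0% in each 2-dose library. Thrap3, which takes part in splicing of RNA, stood at 66.8%, 66.2% and 62.4% against 46.9%, 41.8% and 44.7%. Its CpG 32 bases before the start was deep in both groups, with 419 to 870 reads and 68.5%, 66.7% and 64.8% with 0 doses, and 140 to 180 reads and 58.3%, 51.4% and 57.3% with 2 doses. At 44 bases the groups overlapped, at 63.2% to 70.0% and 57.0% to 69.1%. The CpG at 212 bases stood at 11.1%, 40% and 0.0% with 0 doses, from 5 to 9 reads. With 2 doses it stood at 0.0%, 1.4% and 3.1% from 56 to 72 reads, so it weighs far more in the pooled level there. The tile that holds the Thrap3 start stood at 48.9% and 15.5% in pooled reads, and at 7.35% and 6.13% with each CpG counted equally. The lower windows also included Ero1a, an oxidase of the endoplasmic reticulum, which stood at 15.3%, 8.2% and 10.5% against 0.0%, 0.0% and 0.2%.

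Over the 59 higher windows the median level was 1.20% to 2.08% in the 0-dose libraries, 16.3% to 20.6% with 2 doses, 13.4% and 21.2% with 4 doses, 7.45% and 8.24% in young HSCs and 6.57% and 11.2% in old HSCs. Both 4-dose libraries lay above both young libraries in 36 of the 55 windows measured in all of them, and below in 3. Over the 21 lower windows the medians were 15.6% to 20% with 0 doses and 2.67% to 4.08% with 2 doses. Young HSCs, at 5.16% and 6.62%, and the 4-dose libraries, at 3.19% and 3.44%, lay near the 2-dose libraries there.

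Genes with known roles in HSCs, in blood lineages, in the response to 5-FU and in methylation were examined through tiles within 5 kb of their matched starts. Of all 14715 tiles near a matched start, 31.3% did not overlap between the groups, 655 higher and 3950 lower, and 1.89% did so by at least 10 points. The excess of lower tiles in the lists below is therefore to be read against the same excess near all matched starts. None of the tiles in the 7 lists was changed by the adjusted test, either by the quasi-binomial model or by limma. An unadjusted p under 0.05 was reached by 2 tiles of stem cell genes, 1 of lymphoid genes, 4 of DNA damage and cell cycle genes, 1 of fluoropyrimidine genes and 1 of methylation enzymes, against 5.25% of all tiles. Among stem cell genes, 10 of 22 were matched and 11 of 43 tiles did not overlap, 1 higher and 10 lower. The myeloid and erythroid lists had 1 matched gene each, and the lymphoid list had 4 of 12 genes, with 7 of 18 tiles not overlapping, 1 higher and 6 lower. For genes of DNA damage and the cell cycle, 16 of 26 were matched and 13 of 43 tiles did not overlap, 2 higher and 11 lower. The largest rise among these 43 tiles was 6.63 points, so the rise of the Cdkn2a promoter window was not seen in tiles. The Cdkn2a tile with the largest difference stood at 35.9%, 40% and 32.8% with 0 doses. With 2 doses it stood at 16.0%, 43.5% and 13.3%, with overlap. For genes that handle fluoropyrimidines or repair uracil, 8 of 14 were matched and 4 of 16 tiles did not overlap. All 7 methylation enzymes were matched, and 9 of their 16 tiles did not overlap, all 9 lower. The median difference of these 16 tiles was -0.792 points, and 1 tile reached 10 points without overlap.

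Large differences in these lists were few. A tile near Gata2, a transcription factor needed by HSCs, stood at 0.66%, 4.21% and 1.01% with 0 doses and at 8.63%, 22.3% and 9.96% with 2 doses (chr6:88143001-88144000, adjusted p = 0.847). A tile near Prdm16, a regulator of HSC maintenance, stood at 33.2%, 38.1% and 29.6% against 21.9%, 26.4% and 16.4% (adjusted p = 0.922). A tile with 3 CpGs near Uhrf1, which brings the maintenance methyltransferase to replicated DNA, stood at 98.3%, 100% and 100% against 85.4%, 71.1% and 83.8% (adjusted p = 0.718). None of the 3 passed the adjusted quasi-binomial test. Tdg is a glycosylase that removes thymine and uracil from mismatches. Its tile differed by less, 6.83 points, and stood at 3.36%, 0.57% and 2.65% against 12.5%, 7.06% and 7.51% (adjusted p = 0.886, quasi-binomial model). With 4 doses and in young HSCs the means were 5.10% and 5.15% at the Gata2 tile. They were 32.8% and 33.8% at the Prdm16 tile, and 1.24% and 0.70% at the Tdg tile. At each of these tiles the 4-dose mean lay nearer to the 0-dose mean than to the 2-dose mean. The Uhrf1 tile stood at 92.5% in young HSCs, with no 4-dose value, and had 37 to 59 reads per library.

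Tiles that changed in other comparisons of the series, chosen without the 6 libraries, were used as scores of ageing, transplantation and development. Over 3210 tiles that gained methylation from young to old HSCs, the means were 60.7% ± 1.20 with 0 doses and 60.4% ± 0.741 with 2 doses (SD, n = 3 each, exact permutation p = 0.8). Both lay between young HSCs, at 44.2% and 47.5%, and old HSCs, at 66.6% and 68.9%. These young and old libraries chose the tiles, so that choice alone can place other libraries between them. Fetal HSCs also lay there, at 56.3% and 56.5%. Over 594 tiles that gained after transplantation of 10 young cells the means were 40.5% and 41.7%, and over 5972 tiles that lost they were 83.8% and 82.5% (exact permutation p = 0.3 and 0.5). None of the 6 scores separated the groups, with exact permutation p-values from 0.3 to 1.

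At the tiles that differed by at least 10 points, the libraries with 4 doses were set beside both groups. The 2-dose and 4-dose values share the same 0-dose controls, so the shares below are values and no test. Of 854 higher tiles with at least 20 reads in the libraries compared, the 4-dose mean was nearer to the 2-dose mean in 77.0%, the mean of old HSCs in 69.4% and that of young HSCs in 46.1%. Of 1201 lower tiles these shares were 45.4%, 29.1% and 51.9%. Nearness to the 2-dose libraries in the higher tiles was also found in old HSCs, which had no labelled 5-FU. The tiles were picked by the 0-dose and 2-dose levels themselves. Nearness of other libraries to either group can follow from that choice, and its source was not tested. The median levels of the higher tiles were 61.3% with 0 doses, 78.1% with 2, 75.3% with 4, 74.9% in old HSCs and 68.5% in young HSCs, and those of the lower tiles were 83.7%, 65.9%, 75.2%, 80.5% and 73.4%.

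The 0-dose libraries stood apart from the rest of the series more often than the 2-dose libraries. Among 64044 tiles with at least 20 reads in all 25 libraries, the 3 libraries with 0 doses lay above the other 22 in 383 tiles, 100 of them by at least 10 points, and below in 55. The 3 libraries with 2 doses lay above the other 22 in 75 tiles and below in 26. All 5 libraries with 2 or 4 doses lay above the other 20 in 132 tiles, 68 of them by at least 10 points, and below in 30. The counts for 0 and 2 doses are not like for like. The libraries set against the 2-dose group include those with 4 doses, while no other library is labelled with 0 doses. The 0-dose libraries were also among the shallowest of the series. The part of depth in these counts was not tested. In 9456 of the tiles, thinned to 50 reads, 2 libraries differed by 9.24 to 9.66 points on average within the 0-dose group. The means were 10.1 to 11.3 within the 2-dose group and 10.1 to 11.3 between the groups. The median difference was 8 points in every pair, within and between groups. By the means, every pair of libraries from different groups differed by more than every pair inside the 0-dose group. The pairs between groups spanned about the same range as those inside the 2-dose group.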

How the data were processed

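Each deposited file lists CpGs with position, strand, methylated over total reads and a score; per the submitters' processing notes the coordinates are on mm9. The authors' deposited score is a whole number, the methylated share on a scale to 1000 rounded down, and was not tested. The sources used here do not name the aligner, caller or filters. The deposited reads were fitted per tile with a quasi-binomial model (Williams' weights, correlation of reads 0.0115, dispersion moderated with limma 3.58.1 in R 4.3.3 on 3.62 prior and 4 residual degrees of freedom, floored at 1), with Benjamini-Hochberg adjustment over all tiles. Single values were compared by two-sided exact permutation tests. Reads carry no molecular identifiers, so depth covers counting error only. With no mm9 annotation used here, 9284 of 15382 autosomal RefSeq promoter windows with at least 8 CpGs were placed by CpG spacing, 99.97% in gene order, so an unplaced gene may lie nearer to a tile. The rule named changed tiles; with 1 changed, the 10 largest non-overlapping differences each way (at least 5 CpGs and 50 reads per library) were described. The gene names in promoters and gene lists follow the same 10-point rule, except Tdg at 6.83 points, with examples picked after their values were seen. Replicate numbers did not pair libraries: deviations of same-numbered libraries correlated at 0.0173, 0.0231 and -0.00177. Members and lists were chosen with earlier results of these data known. The fit was tested on simulated data. Python 3.11.15 was used with numpy 2.4.6, scipy 1.17.1, pandas 2.3.3 and matplotlib 3.10.9.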

Additional observations from a re-analysis of the deposited data

How the results depend on the processing

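The quasi-binomial model called 1 changed tile. The count was 0 under limma, at an adjusted p under 0.01, with each CpG counted equally, with the replicate block (3349 tiles at an unadjusted p under 0.05), with tiles of 1 CpG or more, with 300 bp tiles, with CpGs over 500 reads left out, with chromosome X added, without any 1 library (0 to 0), and, chosen after seeing the data, with the correlation of reads estimated on tiles between 10% and 90%. The count was 2 with the library offset removed, 20 with 10 libraries in the fit (10 higher, 10 lower), 22 with at least 5 CpGs per tile (9 higher, 13 lower) and 45 without weights (29 higher, 16 lower).

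The count of tiles that did not overlap by at least 10 points, 2739, was 471 at 20 points, 13786 with no minimum, 1498 at 10 reads per CpG, 839 with 5 CpGs per tile, 8939 with 1, 1667 with 10 libraries and 4312 to 4946 without any 1 library, where fewer libraries need to separate. These settings, and those of the promoters, were chosen after seeing the data. The 80 promoter windows became 24 without CpGs inside CCGG, and 90 to 105 without any 1 library.

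The class means changed sign without 1 library in 3 of 7 classes: all tiles (-1.01 to 0.0807 points), 80% or more in young HSCs (-1.25 to 0.377) and fewer than 10 CpGs (-1.22 to 0.152). The scores of age gain (-0.693 to 0.386), transplantation loss (-2.33 to 0.108) and development gain (-0.799 to 0.542) did so too, the last also at 10 reads per CpG (0.0928). None of these had separated the groups. Of 414 values at the 20 described tiles, 6 turned: 2.40 at chr4:4270001-4271000 and 3.79 at chr11:103934001-103935000 without CpGs over 500 reads, 0.815 at chr9:67896001-67897000 and -2.12 at chr4:127033001-127034000 with CpGs counted equally, and 0.142 and 0.0151 at chr19:6363001-6364000 at 10 reads per CpG and with 10 libraries. Why the calls moved was not tested beyond the values at the CpGs given above. Low depth in the 0-dose libraries, at a median of 10 to 13 reads per CpG, limits what a CpG there can show, and 3 libraries against 3 cannot give an exact p under 0.1.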
